A study of Mus musculus with 9 samples.

Results

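The ubiquitin ligase genes of muscle atrophy were followed in the gastrocnemius of mice whose hindlimbs were unloaded and then loaded again. They are 10 genes taken by name from the 55487 genes of the count table: the F-box genes Fbxo32, Fbxo30, Fbxo21 and Fbxo31, the muscle RING finger genes Trim63, Trim54 and Trim55, the Kelch gene Klhl38, the HECT gene Nedd4 and the SOCS box gene Asb2. Polyadenylated RNA from powdered gastrocnemius of wild-type C57BL/6J mice (C57BL/6 in the labels) was sequenced in 9 libraries. Control (n = 4) mice lived in ordinary cages, Unloading (n = 2) muscles were taken on day 10 of tail suspension, which keeps the hindlimbs off the floor, and Reloading (n = 3) muscles were taken on day 1 after the mice were returned to their home cage from such a suspension. No group carried a transgene, a deletion or a drug, and no age is given in the sources used here. The labels say male while the study's methods speak of female mice for the suspension. Xist had 0 to 5 counts and the Y-linked gene Ddx3y 1013 to 1993 counts over the 9 libraries. By these counts all 9 libraries came from male tissue, as the labels say.

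Ubiquitin ligases choose the proteins that are tagged with ubiquitin and broken down by the proteasome, the main route by which wasting muscle loses its contractile proteins. A ligase works after an activating enzyme (E1) and a conjugating enzyme (E2). F-box proteins, Kelch proteins and SOCS box proteins are the substrate-binding parts of larger complexes built on the scaffolds Cul1, Cul3 and Cul5, whereas RING finger proteins of the Trim family bring the conjugating enzyme to the substrate and HECT enzymes such as Nedd4 carry the ubiquitin themselves. Fbxo32 (atrogin-1, also called MAFbx) and Trim63 (MuRF1) are the classical marker genes of atrophy, switched on by FoxO transcription factors and by glucocorticoids and held down by insulin-like growth factor signalling through Akt.

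The libraries held 9252443 to 19612101 counted read pairs, and the 10 genes had between 101 and 10235 counts each in every library. All 10 passed the filter on low counts, which 14851 genes passed. Normalized expression is given as counts per 1000000 (CPM) of library size scaled with TMM, which sets the bulk of genes level between libraries. The Reloading libraries had the highest TMM factors (1.11 to 1.13, against 0.928 to 0.960 in the other groups), so the choice of scaling moved Reloading against both other groups: scaled by library totals alone, the median log2 fold change of all genes was 0.27 for Reloading against Unloading and 0.25 against Control, in place of 0.03 and 0.01. The 6 muscle fibre markers (Acta1, Ckm, Myh1, Myh4, Tnnt3 and Mylpf) all had counts and summed to 142680 to 156724 CPM in Control, 143855 to 149848 CPM in Unloading and 101973 to 113554 CPM in Reloading. Of these 6, 5 were lower in Reloading than in Unloading, and 4 were under library totals, so a fall of a fibre gene in whole-muscle RNA cannot be told apart from a smaller share of fibre RNA. Higher in Reloading than in Unloading were 6 of 7 macrophage markers (summed CPM 126.5 to 141.5 against 56.7 to 59.4), 4 of 5 endothelial markers (234.0 to 290.1 against 133.4 to 134.8) and 5 of 5 smooth muscle markers (168.4 to 189.9 against 97.5 to 100.8); their part in the results was not tested. Also higher were 3 of 4 Schwann cell markers (57.8 to 77.1 against 22.0 to 29.5) and 1 of 5 satellite cell markers, while the 4 neutrophil markers summed to at most 5.41 CPM in any library, with Ly6g and Cxcr2 at 0 in Unloading. Keratinocyte markers stood high in Control 2 and Reloading 1 only, at 290.8 and 132.0 summed CPM, and each member result was recomputed without that pair of libraries.

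Per length of exon, Trim54 was the most abundant of the 10 mRNAs in Control, at 235.4 ± 19.8 RPKM (CPM per kilobase of exon, SD, n = 4), followed by Asb2 at 137.5 ± 17.3, Trim63 at 92.2 ± 11.4 and Fbxo32 at 42.1 ± 4.41 RPKM. Nedd4 at 38.2 ± 2.13 RPKM overlapped in range with Fbxo32 above it and with Fbxo31 below it, at 34.1 ± 2.26 RPKM. Trim55 stood at 28.1 ± 1.81 RPKM, Klhl38 at 6.53 ± 1.34 RPKM, Fbxo30 at 3.21 ± 0.451 RPKM and Fbxo21 at 2.40 ± 0.315 RPKM. No other pair of neighbours in this Control order overlapped. In Unloading, Asb2 (84.0 to 115.1 RPKM) and Trim63 (94.1 to 98.8 RPKM) overlapped, as did Fbxo32 and Nedd4. In Reloading, Trim63 (116.7 to 166.1 RPKM) stood above Asb2 (69.8 to 97.9 RPKM) without overlap, and Nedd4 (37.8 to 40.5 RPKM) stood above Fbxo32 (25.6 to 34.9 RPKM). The Klhl38 level is an underestimate, since 1446 of its 2212 exon bases (65.4%) are also exon of the antisense gene Gm15943 and read pairs wholly inside such bases were counted for neither gene. Its whole count divided by its 766 unshared bases gave 18.8 RPKM in Control, 32.2 in Unloading and 15.5 in Reloading. This is not a count over those bases. Pairs only partly inside shared bases may be part of it, so these values may be too high. Treated in the same way, with the same limit, Nedd4 in Control gave 43.9 RPKM (41.3 to 46.3) and Fbxo32 43.3 RPKM. On that measure Nedd4 did not overlap Fbxo31 (31.9 to 37.3 RPKM), which shares no exon bases. The order of these 3 genes in Control therefore depends on the length used.

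Of the 10 genes, Klhl38 and Nedd4 rose on unloading, the rise of Nedd4 being called in only 11 of 18 alternatives tried. Reloading brought changes in both directions, with falls of Fbxo32, Fbxo31, Klhl38 and Nedd4 and a rise of Trim63 from Unloading. Of these the fall of Nedd4 did not hold under library totals. The rise of Klhl38 on unloading and that of Trim63 from Unloading were each called in 17 of 18 alternatives. Unloading against Control, 2 of the 10 genes were higher and 0 lower at an edgeR adjusted p under 0.05, where 4.4% of all genes tested were called higher and 5.5% lower, 9.9% in all. Reloading against Unloading, 1 was higher and 4 were lower, where 18.5% of all genes were called higher and 19% lower, 37.5% in all. Reloading against Control, 3 were higher and 5 lower, where 22.1% of all genes were called higher and 21.3% lower, 43.5% in all. With library totals in place of TMM the counts of the 10 became 2 higher and 2 lower in Unloading than in Control, 3 higher and 3 lower in Reloading than in Unloading, and 4 higher and 2 lower in Reloading than in Control. Under that scaling the shares of all genes called higher were 4.10%, 35.4% and 40.6%. The shares called lower were 5.78%, 7.34% and 9.99%. With TMM the median log2 fold change of the 10 was 0.07, -0.23 and -0.30 in these comparisons, beside -0.00, 0.03 and 0.01 for all genes tested. The groups did not overlap in CPM for 4, 7 and 7 of the 10 genes, against 33%, 60% and 46.9% of all genes. The comparisons share libraries, so they are not independent of each other.

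**Figure D1:**
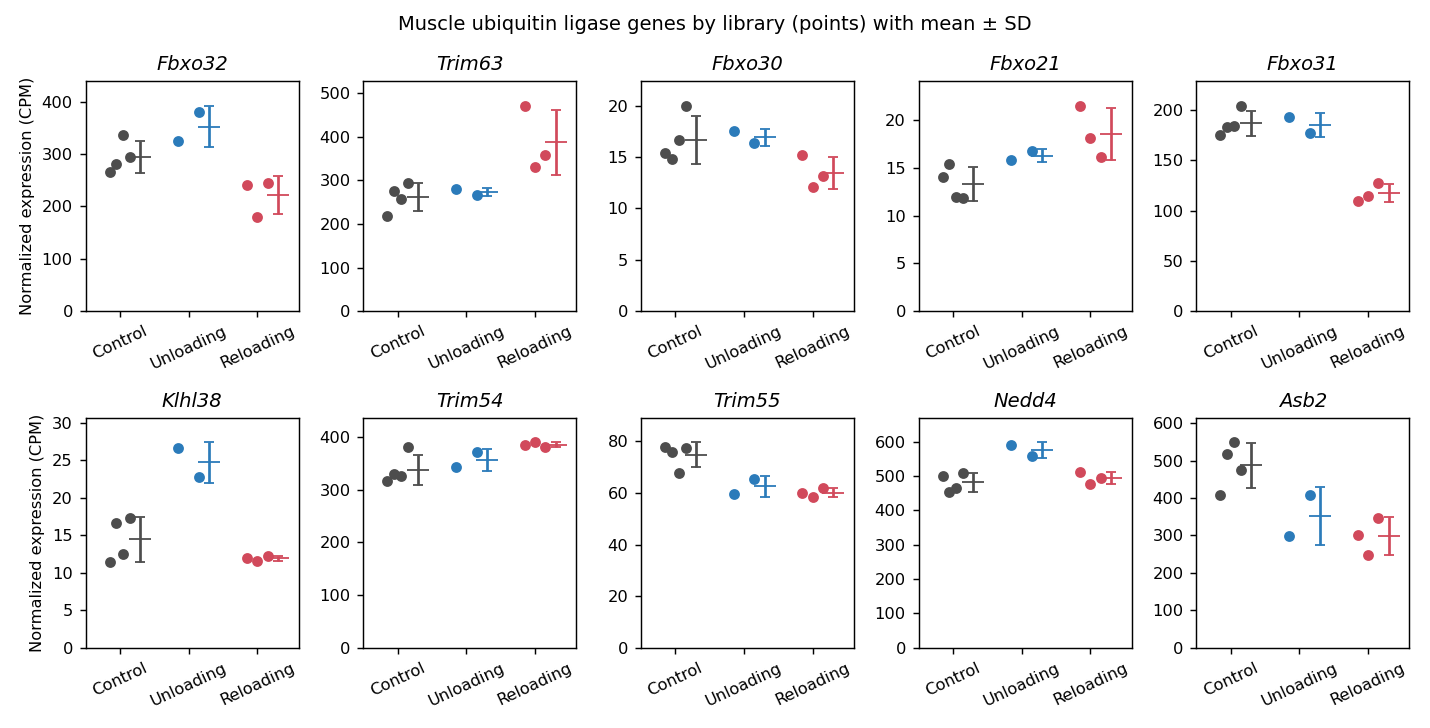
Normalized expression (CPM, each vertical axis from 0) of the 10 ligase genes in every library, with Control in grey, Unloading in blue and Reloading in red; points are libraries and the bars beside them give mean ± SD. Fbxo32 and Fbxo31 lie lower in all 3 Reloading libraries than in all others, Trim63 lies higher there, and Klhl38 is raised in both Unloading libraries.

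**Figure D2:**
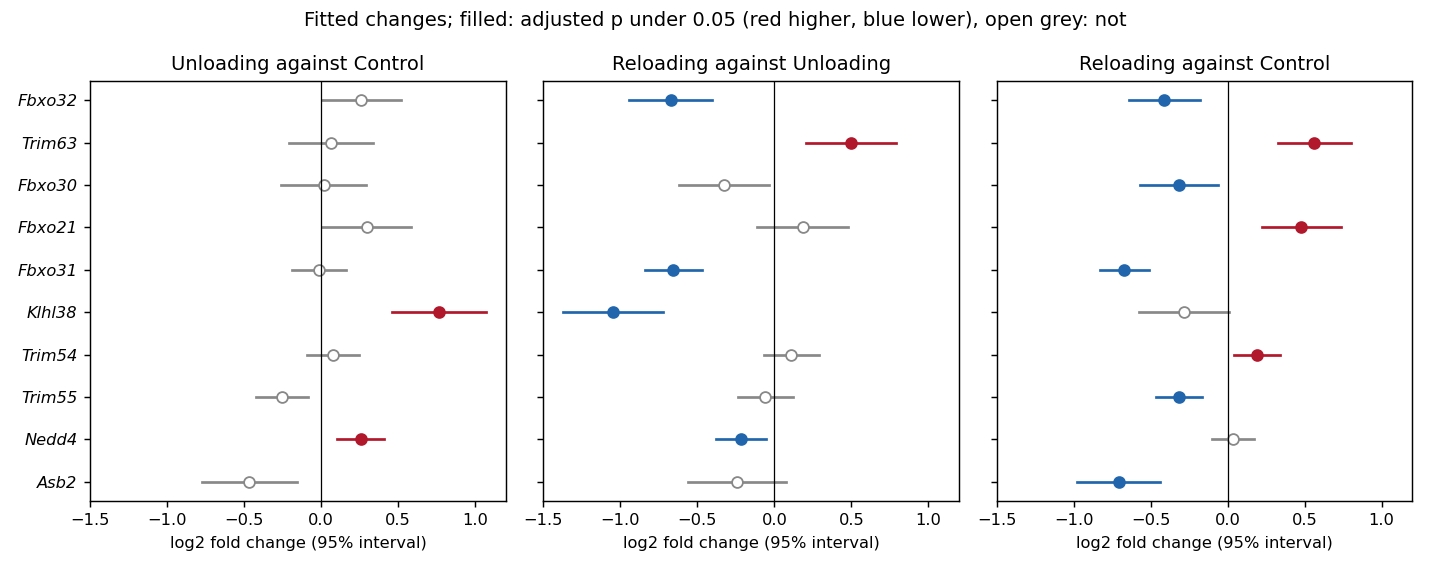
Log2 fold change of each ligase gene with its 95% interval in the 3 comparisons, from edgeR; filled red points were called higher and filled blue points lower at an adjusted p under 0.05, and open grey points were not called. Scaled with TMM, Fbxo32 and Trim63 lie on opposite sides of 0 in both Reloading comparisons.

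Fbxo32 (chr15:58175879-58214932, minus strand, GRCm38) encodes the F-box protein reported to target the initiation factor Eif3f and the myogenic factor Myod1. It stood at 264.7, 280.9, 336.5 and 293.8 CPM in Control, at 324.1 and 380.5 CPM in Unloading and at 241.1, 178.8 and 243.6 CPM in Reloading. The Unloading libraries overlapped the upper end of Control, and all 3 Reloading libraries lay under every other library. From Unloading to Reloading the gene fell by 37.2% (log2 fold change -0.67, SE 0.13, edgeR adjusted p = 0.000763), and it was called lower in all 18 alternatives tried, with -0.42 under library totals. Against Control it was lower in Reloading by a log2 fold change of -0.41 (SE 0.11, edgeR adjusted p = 0.00632), a call that was lost with library totals (-0.17, edgeR adjusted p = 0.183). Unloading against Control the log2 fold change was 0.26 (95% interval 0.01 to 0.52, edgeR adjusted p = 0.185), and only without the filter on low counts was it called (edgeR adjusted p = 0.00741). Set against the summed fibre markers of the same library, a scaling added after the data were seen, the Reloading difference was -0.25 from Unloading and 0.06 from Control on the log2 scale. Of those markers Acta1 was itself lower in Unloading than in Control (log2 fold change -0.68, edgeR adjusted p = 0.000698), so their sum is not a measure of fibre content alone.

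Trim63 (chr4:134315120-134329629, plus strand, GRCm38) encodes MuRF1, the RING finger ligase reported to act on myosin heavy chain, myosin-binding protein C and other parts of the thick filament. Its level was 219.0, 276.6, 257.7 and 294.6 CPM in Control, 280.9 and 267.5 CPM in Unloading, and 471.9, 331.8 and 358.2 CPM in Reloading. The Unloading libraries sat inside the Control range, and each Reloading library was higher than all 6 of the other libraries. Unloading against Control, the log2 fold change was 0.06 with a 95% interval of -0.21 to 0.34 (edgeR adjusted p = 0.799). Reloading was 1.41-fold above Unloading (log2 fold change 0.50, SE 0.14, edgeR adjusted p = 0.00976) and 1.48-fold above Control (0.56, SE 0.11, edgeR adjusted p = 0.000854). The call against Unloading was lost without Unloading 2 (0.45, edgeR adjusted p = 0.0780), while that against Control held in all 18 alternatives. Per summed fibre marker the rise was larger, at 0.92 from Unloading and 1.04 from Control on the log2 scale.

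The stretch before the start of Trim63 is shown because the FoxO route named above acts on this gene. It covers the 250 bases upstream of the RefSeq start on the plus strand (GRCm38.p6, chr4:134314870-134315119), 5′ to 3′, with capitals marking the FoxO element GTAAACA, which reads TGTTTAC on this strand and begins at -194 from the start.
Trim63 promoter: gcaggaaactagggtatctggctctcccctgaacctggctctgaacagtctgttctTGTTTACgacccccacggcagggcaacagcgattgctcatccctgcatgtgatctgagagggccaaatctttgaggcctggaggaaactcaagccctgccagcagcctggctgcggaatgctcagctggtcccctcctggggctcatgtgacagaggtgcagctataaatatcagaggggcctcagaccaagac
The motif was searched on both strands of windows from 250 bases before to 50 bases after the start, and 3.65% of 32851 RefSeq windows of all genes hold it. RefSeq windows were found for 7 of the 10 genes, 9 windows in all, and Trim63 alone had the FoxO element. Windows for Fbxo32, Klhl38 and Trim55 were not analysed here. The E-box CANNTG, bound by myogenic factors, was in 5 of the 9 windows, against 72.3% of all windows, and the MEF2 box was in 0 of 9, against 3.19%; a match or its lack here describes letters only.

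From Unloading to Reloading the classical pair of atrophy genes moved in opposite directions. Against Control the fall of Fbxo32 was not called under library totals (-0.17). Per summed fibre marker Fbxo32 was at 0.06 from Control on the log2 scale, beside 1.04 for Trim63. Within a library the ratio of Trim63 to Fbxo32 CPM does not depend on scaling, and it shows only their relative change. It was 0.827, 0.985, 0.766 and 1.00 in Control, 0.867 and 0.703 in Unloading, and 1.96, 1.86 and 1.47 in Reloading. The 3 Reloading ratios lay above all others, and the Unloading ratios overlapped Control. Group means were 0.895 ± 0.117 (SD, n = 4), 0.785 ± 0.116 (SD, n = 2) and 1.76 ± 0.257 (SD, n = 3). The ratio was formed after both genes had been seen and is given without a test.

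**Figure D3:**
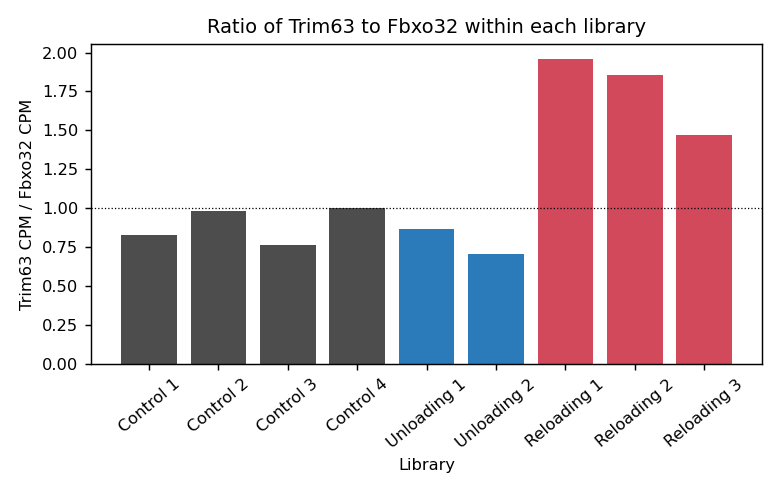
Ratio of Trim63 CPM to Fbxo32 CPM within each of the 9 libraries, as bars from 0, with a dotted line at a ratio of 1. The 3 Reloading bars stand at 1.47 to 1.96, and the 6 others lie between 0.703 and 1.00.

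The other F-box genes went separate ways. Fbxo31 (chr8:121549440-121578806, minus strand, GRCm38), whose product is known for degrading cyclin D1, was at 175.1, 183.5, 183.9 and 204.3 CPM in Control, 193.5 and 176.6 CPM in Unloading and 109.6, 114.7 and 127.8 CPM in Reloading. Control and Unloading overlapped throughout, and Reloading lay apart from both. The gene fell by 36.5% from Unloading (log2 fold change -0.66, SE 0.09, edgeR adjusted p = 4.47e-05) and fell by 37.1% from Control (-0.67, SE 0.08, edgeR adjusted p = 5.30e-06). Both calls held in all 18 alternatives, with log2 fold changes of -0.41 and -0.43 at their weakest; per summed fibre marker the differences were -0.22 and -0.19.

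Fbxo21 (chr5:117976730-118010201, plus strand, GRCm38), an F-box gene named in denervation atrophy, was at 14.1, 15.4, 11.9 and 11.8 CPM in Control, 15.8 and 16.8 CPM in Unloading and 21.5, 18.1 and 16.1 CPM in Reloading. Control was the lowest group, and Reloading overlapped Unloading. It was 1.39-fold higher in Reloading than in Control (log2 fold change 0.48, SE 0.12, edgeR adjusted p = 0.00491), a call held in all 18 alternatives. Neither Unloading against Control (0.30, 95% interval 0.01 to 0.59, edgeR adjusted p = 0.185) nor Reloading against Unloading (0.18, 95% interval -0.11 to 0.48, edgeR adjusted p = 0.325) was called. With library totals, Reloading against Unloading was called for this gene (0.43, edgeR adjusted p = 0.0253).

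Fbxo30 (chr10:11281330-11298052, plus strand, GRCm38) encodes MUSA1, an F-box ligase restrained by bone morphogenetic protein signalling. Its level was 15.3, 14.8, 16.7 and 20.0 CPM in Control, 17.5 and 16.3 CPM in Unloading and 15.2, 12.1 and 13.2 CPM in Reloading. Reloading overlapped the lower end of Control and lay under Unloading. Against Control the log2 fold change was -0.31 (SE 0.12, edgeR adjusted p = 0.0437), but it was called in only 10 of 18 alternatives and lost without any of Control 3, Control 4, Unloading 1, Reloading 2 and Reloading 3 (edgeR adjusted p 0.0507 to 0.169). Against Unloading it was -0.33 (95% interval -0.62 to -0.04, edgeR adjusted p = 0.0711), and it was called without Control 4 or without Reloading 1 (edgeR adjusted p = 0.0441 and 0.0405). Under library totals these differences shrank to -0.07 (edgeR adjusted p = 0.631) from Control and -0.08 (edgeR adjusted p = 0.644) from Unloading, and per summed fibre marker they were 0.18 and 0.10.

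Klhl38 (chr15:58314573-58324169, minus strand, GRCm38), a Kelch gene of skeletal muscle that lies near Fbxo32, had the largest rise of the 10 on unloading. It stood at 11.4, 16.6, 12.4 and 17.3 CPM in Control, at 26.6 and 22.8 CPM in Unloading, and at 11.9, 11.6 and 12.2 CPM in Reloading. Both Unloading libraries were above every other library, and Reloading lay within the Control range. The gene was 1.70-fold higher in Unloading than in Control (log2 fold change 0.76, SE 0.14, edgeR adjusted p = 0.00463), and the call was lost without Unloading 1 (0.66, edgeR adjusted p = 0.108). It fell by 51.6% from Unloading to Reloading (-1.05, SE 0.15, edgeR adjusted p = 9.16e-05), in all 18 alternatives. Reloading against Control gave -0.28 (95% interval -0.58 to 0.01, edgeR adjusted p = 0.110), called without Control 1 (edgeR adjusted p = 0.0341) and right at the threshold without Control 3 (-0.37), and -0.04 with library totals. Gm15943, the antisense gene over its exons, had 8 to 46 counts in a library against 101 to 417 for Klhl38, and the counting did not use strand.

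The sarcomeric relatives of Trim63 are Trim54 and Trim55. Trim54 (chr5:31116712-31137630, plus strand, GRCm38) encodes MuRF3, which with its relatives sits at the Z-disc and M-band and binds microtubules. It was at 317.2, 329.4, 325.5 and 380.0 CPM in Control, 342.1 and 371.6 CPM in Unloading and 384.6, 389.6 and 381.0 CPM in Reloading. The Reloading libraries were the highest of all, by a narrow margin over Control 4. Reloading was 1.14-fold above Control (log2 fold change 0.19, SE 0.07, edgeR adjusted p = 0.0408), but this was called in only 7 of 18 alternatives and lost without any library but Control 4 and Unloading 1 (edgeR adjusted p 0.0568 to 0.126). Unloading against Control it was 0.08 (95% interval -0.09 to 0.25) and Reloading against Unloading 0.11 (95% interval -0.07 to 0.29). With library totals Reloading was above Unloading by 0.36 (edgeR adjusted p = 0.00201) and above Control by 0.43 (edgeR adjusted p = 6.91e-05), and per summed fibre marker the differences were 0.55 and 0.68. The description numbers come from the labels, and reading them as pairs of Control and Reloading was inferred from the data. In the fit blocked by them, the rise over Control was 0.16 and not called (edgeR adjusted p = 0.0566). Of its 1436 exon bases, 382 (26.6%) are shared with the antisense gene Gm15469.

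Trim55 (chr3:19644474-19692421, plus strand, GRCm38) encodes MuRF2, a RING finger protein of the M-band. Its level was 78.0, 76.0, 67.7 and 77.6 CPM in Control, 59.7 and 65.4 CPM in Unloading and 60.0, 58.4 and 62.0 CPM in Reloading. Control lay above both other groups, which overlapped each other. It was lower in Reloading than in Control (log2 fold change -0.31, SE 0.07, edgeR adjusted p = 0.00217), but not with library totals (-0.07, edgeR adjusted p = 0.386). For Unloading against Control, -0.26 (95% interval -0.43 to -0.09) just missed the threshold (edgeR adjusted p = 0.0564) and passed it without Control 3 (edgeR adjusted p = 0.0416). Reloading against Unloading gave -0.06 (95% interval -0.24 to 0.12), and 0.19 with library totals (edgeR adjusted p = 0.0713).

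Nedd4 (chr9:72662346-72749852, plus strand, GRCm38) encodes the HECT ligase for which its family is named, reported to act on Notch1 and Fgfr1. It was at 500.6, 453.5, 464.4 and 508.4 CPM in Control, 591.5 and 559.2 CPM in Unloading and 510.7, 476.7 and 495.8 CPM in Reloading. The Unloading libraries were the highest, and Reloading overlapped Control. It was 1.19-fold higher in Unloading than in Control (log2 fold change 0.26, SE 0.07, edgeR adjusted p = 0.0342). That call was made in 11 of 18 alternatives and was lost without any of Control 2, Control 3, Unloading 1, Unloading 2 and Reloading 2 (edgeR adjusted p 0.0503 to 0.294). From Unloading to Reloading it fell by 14.1% (-0.22, SE 0.08, edgeR adjusted p = 0.0337), also called in 11 of 18 alternatives, lost without any of Unloading 1, Unloading 2, Reloading 2 and Reloading 3 (edgeR adjusted p 0.0539 to 0.171) and turned to 0.03 with library totals. Reloading against Control was 0.04 (95% interval -0.10 to 0.17), but with library totals it was called higher at 0.28 (edgeR adjusted p = 0.00170). Part of its exon sequence is shared with Gm7265 (11.3%) on the same strand, so its count is less certain.

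Asb2 (chr12:103321142-103356001, minus strand, GRCm38) encodes the SOCS box protein that directs filamins to degradation and that lowers muscle mass when raised. Its level was 407.2, 517.9, 548.7 and 474.2 CPM in Control, 297.7 and 407.6 CPM in Unloading and 301.1, 247.3 and 346.8 CPM in Reloading. Unloading reached the lowest Control library, and all 3 Reloading libraries lay under Control and overlapped Unloading. Reloading was lower than Control by 38.7% (log2 fold change -0.71, SE 0.13, edgeR adjusted p = 0.000372), which held in all 18 alternatives. Unloading against Control, at -0.47 (95% interval -0.77 to -0.16), just missed the threshold (edgeR adjusted p = 0.0543). It was called in 8 of 18 alternatives, among them without any of Control 1, Unloading 2, Reloading 2 and Reloading 3 (edgeR adjusted p 0.0218 to 0.0457). Reloading against Unloading was -0.24 (95% interval -0.56 to 0.08, edgeR adjusted p = 0.219). It was 0.01 with library totals, and it was called without the filter on low counts (-0.27, edgeR adjusted p = 0.0118) and with the block by description number (-0.41, edgeR adjusted p = 0.0230). Leaving out Unloading 1 gave -0.45 and leaving out Unloading 2 gave -0.00, neither called.

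The upstream stretch of Asb2 is printed as the only member window with a CArG box, the site of serum response factor. It holds the 250 bases before the start of its first RefSeq window on the minus strand (GRCm38.p6, chr12:103356002-103356251), 5′ to 3′, and the capitals mark the CArG box, which begins at -64.
Asb2 promoter: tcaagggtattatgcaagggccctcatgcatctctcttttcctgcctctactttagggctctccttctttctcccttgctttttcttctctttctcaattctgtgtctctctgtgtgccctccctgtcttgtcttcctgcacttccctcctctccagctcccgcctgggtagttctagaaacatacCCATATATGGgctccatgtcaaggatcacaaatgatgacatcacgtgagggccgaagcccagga
A CArG box was found in 1.63% of all windows. Neither marked element overlaps an E-box.

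The F-box, Kelch and SOCS box proteins work inside cullin complexes. Of the 12 cullin partners (scaffolds, adaptors, RING subunits and the Nedd8 pathway), 2 were higher and 9 lower in Reloading than in Unloading, with a median log2 fold change of -0.41 against 0.03 for all genes, and 2 were higher and 5 lower, with a median of -0.16, under library totals. Skp1, which links F-box proteins to Cul1, fell from 242.2 to 145.3 mean CPM (log2 fold change -0.74, edgeR adjusted p = 6.68e-06). Cul3, the scaffold for Kelch proteins, fell from 393.3 to 253.4 mean CPM (-0.63, edgeR adjusted p = 5.85e-05), and Eloc, the adaptor of Cul5, from 79.5 to 53.3 mean CPM (-0.57, edgeR adjusted p = 0.000103). The higher ones were Cand1 (log2 fold change 0.60) and Cand2 (0.56), which exchange the substrate-binding parts on cullins. Reloading against Control the count was also 2 higher and 9 lower. Unloading against Control, Cul1 (0.33) and Skp1 (0.26) were higher and Cand2 (-0.34) lower.

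Of 28 genes for ubiquitin, E1 and E2 enzymes, 1 was higher and 10 were lower in Reloading than in Unloading with a median of -0.13, which turned to 9 higher and 5 lower with a median of 0.12 under library totals. Ube2d1, an E2 enzyme, fell from 224.9 to 135.0 mean CPM (log2 fold change -0.74, edgeR adjusted p = 7.43e-06). Ube4a, a chain-extending factor, rose on unloading (0.75, edgeR adjusted p = 0.00393) and fell on reloading (-1.07, edgeR adjusted p = 5.25e-05). Against Control, Reloading had 6 of these 28 higher and 13 lower, or 10 higher and 5 lower under library totals. Among 12 deubiquitinases, which remove ubiquitin, 2 were higher and 4 lower in Reloading than in Unloading, or 4 higher and 2 lower under library totals. Otud1 rose from 14.5 to 199.0 mean CPM (log2 fold change 3.77, edgeR adjusted p = 1.23e-07) and Usp28 from 71.9 to 238.7 mean CPM (1.73, edgeR adjusted p = 6.64e-09).

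Of 24 other ligases studied in muscle, 4 were higher and 9 lower in Reloading than in Unloading with a median of -0.09, or 9 higher and 3 lower with a median of 0.16 under library totals. Trim72 (MG53), a ligase known for membrane repair, fell on unloading (log2 fold change -0.45, edgeR adjusted p = 0.00430) and rose on reloading from 147.4 to 290.4 mean CPM (0.98, edgeR adjusted p = 1.24e-06). Fbxo40, a muscle F-box gene reported to act on the insulin receptor substrate, fell on unloading (-0.23, edgeR adjusted p = 0.0454) and was above Control on reloading (0.45, edgeR adjusted p = 2.62e-05). Ubr3 fell on reloading (-0.80, edgeR adjusted p = 1.64e-05). Among the 7 tested relatives of Nedd4, 1 was higher and 1 lower in Reloading than in Unloading, or 3 higher and 1 lower under library totals: Smurf1 rose (0.60, edgeR adjusted p = 0.000234) and Wwp1 fell from 391.2 to 210.4 mean CPM (-0.89, edgeR adjusted p = 1.47e-05).

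**Figure D4:**
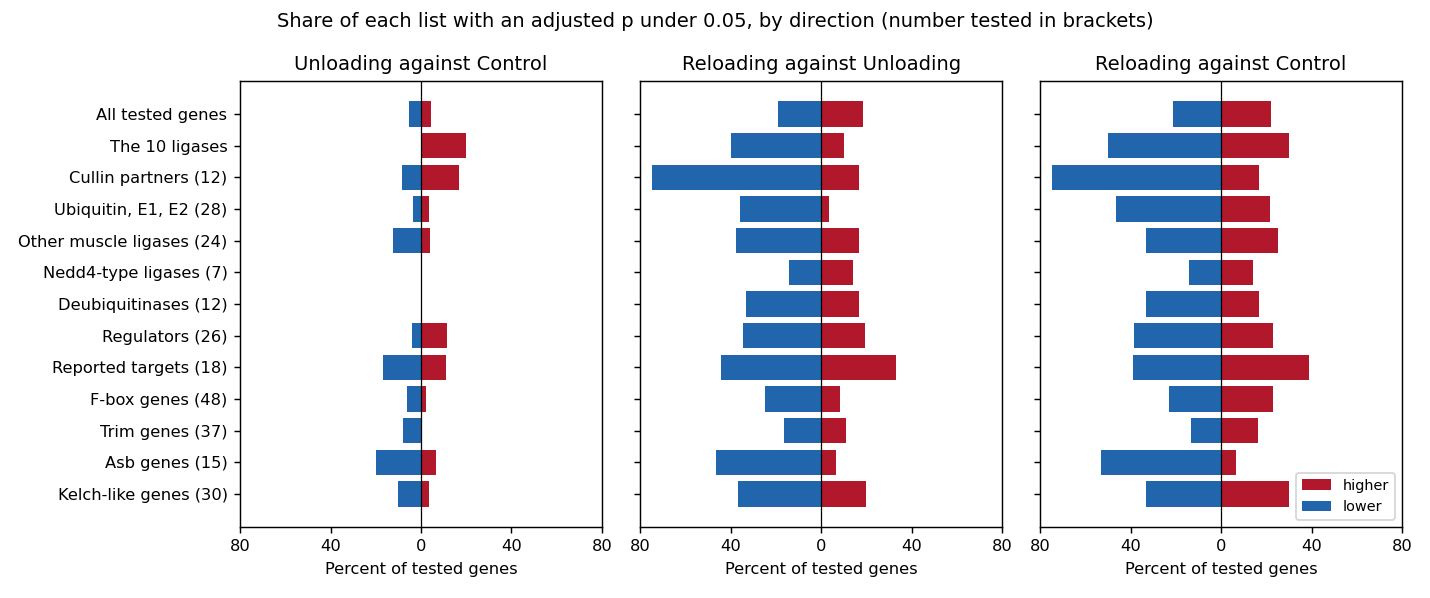
Percent of the tested genes of each list called higher (red, to the right) or lower (blue, to the left) at an edgeR adjusted p under 0.05 in the 3 comparisons, with all tested genes and the 10 ligases at the top and list sizes in brackets. Of the 12 cullin partners 9 are lower in both Reloading comparisons; under library totals 5 are lower than in Unloading and 4 lower than in Control.

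Genes known to control Fbxo32 and Trim63 were read from a list of 26 regulators, of which 3 were higher and 1 lower in Unloading than in Control, and 5 higher and 9 lower in Reloading than in Unloading (10 and 8 under library totals). Foxo1 stood at 16.3, 17.1 and 17.2 mean CPM in Control, Unloading and Reloading, with no call in any comparison. Foxo4 fell from 283.9 to 171.3 mean CPM on reloading (log2 fold change -0.73, edgeR adjusted p = 4.13e-05). Foxo6 fell on unloading (-0.79, edgeR adjusted p = 0.00596). Fkbp5, a target of the glucocorticoid receptor, rose on unloading from 43.4 to 84.8 mean CPM (0.97, edgeR adjusted p = 0.0396) and fell to 24.97 on reloading (-1.75, edgeR adjusted p = 0.000413). Nr3c1, the receptor itself, fell on reloading (-0.53, edgeR adjusted p = 0.00119), and so did Klf15 (-0.81, edgeR adjusted p = 0.00157). Among other glucocorticoid targets on the list, Tsc22d3 had log2 fold changes of 0.09 on unloading and -0.03 on reloading (edgeR adjusted p = 0.779 and 0.902), and Ddit4 had 0.68 and -0.16 (edgeR adjusted p = 0.434 and 0.833).

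Of the remaining regulators on the list, Nfkb1, Smad2, Smad3, Hdac4, Hdac5, Cebpb, Igf1 and Ppargc1a were not called in Reloading against Unloading. Tnfrsf12a, the receptor of TWEAK, rose from 8.11 to 150.5 mean CPM (log2 fold change 4.23, edgeR adjusted p = 2.47e-09), and Relb of the NF-kappaB family rose 2.03-fold (edgeR adjusted p = 0.000149). Rela of the same family rose as well (0.60, edgeR adjusted p = 0.00247). Myog, the myogenic factor that acts on both atrophy genes after denervation, rose from 3.06 to 8.13 mean CPM (1.40, edgeR adjusted p = 0.000250), and Dach2, a repressor of Myog, fell from 3.62 to 0.626 mean CPM (-2.51, edgeR adjusted p = 3.96e-05). Akt1 rose on unloading (0.39, edgeR adjusted p = 0.00392) and was 1.77-fold above Control on reloading (edgeR adjusted p = 1.08e-07). Akt2, at a higher mean CPM than Akt1 in each group, went the other way on reloading. It fell from 337.2 to 240.6 mean CPM (-0.49, edgeR adjusted p = 9.40e-05) and was below Control (-0.30, edgeR adjusted p = 0.000867). Acvr2b, a receptor for myostatin, rose on unloading (0.43, edgeR adjusted p = 0.0411) and fell on reloading (-0.85, edgeR adjusted p = 0.000190). Mstn, the myostatin gene, also fell from Unloading to Reloading (-0.81, edgeR adjusted p = 3.63e-05).

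Of 18 genes whose proteins are reported targets of the ligases, 6 were higher and 8 lower in Reloading than in Unloading, or 6 and 4 under library totals. These are mRNA levels and say nothing of protein degradation. Ccnd1, the cyclin degraded through Fbxo31, rose from 1.68 to 17.6 mean CPM (log2 fold change 3.34, edgeR adjusted p = 4.04e-07). Myod1, a target of Fbxo32, fell on unloading (-0.61, edgeR adjusted p = 0.0391) and rose on reloading (1.30, edgeR adjusted p = 6.22e-05). Flna, which encodes a filamin targeted by Asb2, was above Control on reloading (1.39, edgeR adjusted p = 8.56e-09). Among thick filament and enzyme targets of Trim63, Mylpf (-0.65, edgeR adjusted p = 1.21e-05), Ckm (-0.60, edgeR adjusted p = 1.22e-05) and Myh1 (-0.59, edgeR adjusted p = 0.00200) fell from Unloading to Reloading, and these are also fibre markers of the list above. Fgfr1, a target of Nedd4, rose on unloading (0.50, edgeR adjusted p = 0.000805).

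Within the gene families the 10 ligases belong to, the counts depended on the scaling, as they did for all genes. Of all genes tested, 18.5% were called higher and 19% lower in Reloading than in Unloading, or 35.4% and 7.34% under library totals. Of 48 tested F-box genes, 4 were higher and 12 lower in Reloading than in Unloading, or 15 higher and 6 lower under library totals. The 37 Trim genes split into 4 higher and 6 lower, or 13 and 1. The 30 Kelch-like genes split into 6 higher and 11 lower, or 10 and 6, and among them Klhl40, which stabilises thin filament proteins, rose from 121.1 to 569.1 mean CPM (log2 fold change 2.23, edgeR adjusted p = 2.19e-07), while Klhl33 fell from 372.0 to 144.9 mean CPM (-1.36, edgeR adjusted p = 3.99e-07). Of the 15 Asb genes 1 was higher and 7 lower, or 3 and 3 under library totals. Asb15 (-1.11, edgeR adjusted p = 4.51e-06) and Asb14 (-0.87, edgeR adjusted p = 1.91e-06) fell from Unloading to Reloading, and for their relative Asb2 the difference had not passed the threshold.

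Over the 9 libraries, 4 of the 10 genes spanned at least 1 on the log2 CPM scale: Klhl38 (1.21), Asb2 (1.15), Trim63 (1.11) and Fbxo32 (1.09). For these the genes with the smallest root mean square difference of centred log2 CPM were looked up among 9863 genes, as a description. Such genes are picked for a like profile, so a shared order of groups follows from that choice. Nearest to Fbxo32 were Pnpla7 (0.0910), Ddit4l (0.111) and Calcoco1 (0.113), and nearest to Trim63 were Dnase2a (0.0837), Zfp142 (0.0942) and Setd1b (0.0943). Nearest to Klhl38 were Cir1 (0.159), Gsn (0.172) and Nmt2 (0.192), all with their highest group mean in Unloading. For Asb2 they were Coq8a (0.113), Echdc2 (0.114) and Atp5k (0.115), each highest in Control and lowest in Reloading.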

How the data were processed

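Counts per gene were analysed for 9 gastrocnemius RNA-seq libraries. Per the submitters' processing notes and the file header, the authors used STAR 2.7.3a (GRCm38.p6) and featureCounts 2.0.3, which assigned read pairs to Ensembl release 102 genes regardless of strand. The deposited table holds raw counts for 55487 genes, with no normalization. Other deposited columns give exon positions and gene symbols, which were used, and the authors' DESeq2 fold changes and p-values, which were not.

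Groups came from the labels. One edgeR 4.0.16 quasi-likelihood model of all 9 libraries (R 4.3.3; TMM; genes kept by edgeR's filter with a count minimum of 10 and a total minimum of 15) gave 3 two-sided comparisons, with Benjamini-Hochberg adjustment over 14851 genes, a threshold of 0.05 and a common biological coefficient of variation of 0.0927. The labels do not tie each library to a separate animal, so p-values measure the spread between these samples, which may be technical. CPM are counts divided by TMM-scaled library size, log2 levels use a prior count of 2, and RPKM divide CPM by exon length. The model was also run on simulated data in which few genes changed, and only in Reloading. That run did not test the choice of scaling. Alternatives were other scalings, no filter, DESeq2 1.42.0, a robust fit, the 2 compared groups alone, each library left out, Control 2 and Reloading 1 left out together, and replicate blocks. The members and lists were chosen with earlier results of these data known. Named genes are the 10 ligases and, per list and comparison, at most the 3 higher and 3 lower called genes with the largest change. Other regulators were named after their values were seen. These are Foxo1, Foxo4, Klf15, Nr3c1, Tsc22d3, Ddit4, Akt2, Rela, Mstn and those listed as not called. Replicate numbers in the descriptions were taken to pair Control with Reloading, a pairing inferred from the data. All 3 such pairs had deviations correlated over 0.1 (0.142 to 0.361), as had 2 of 20 pairs with unlike description numbers (up to 0.117). Those 2 were both Control and Reloading pairs, whereas the 20 also include pairs with Unloading. The main model has no block. Sequences are RefSeq's. Of the 10 genes, Klhl38, Fbxo21 and Fbxo30 had the fewest counts (101 to 417 per library) and so the least counting precision.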

Additional observations from a re-analysis of the deposited data

How the results depend on the processing

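Of 540 recomputed log2 fold changes (30 values under 18 alternatives), 462 kept their direction and their side of the threshold, 36 lost a call, 27 gained one and 15 changed sign. Calls that held in all 18 were the falls of Fbxo32, Fbxo31 and Klhl38 from Unloading to Reloading, and, against Control, the rises of Trim63 and Fbxo21 and the falls of Fbxo31 and Asb2 on reloading. The cause of the changes below was not tested.

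Library totals put 82.8% of called genes higher in Reloading than in Unloading (49.3% with TMM) and 80.2% higher than in Control (50.9% with TMM). Of the 10 genes they called 2 lower in Unloading than in Control, 3 higher in Reloading than in Unloading and 2 lower in Reloading than in Control. The shares of all genes called in those directions were 5.78%, 35.4% and 9.99%. Library totals turned Reloading against Unloading positive for Trim55 (0.19), Nedd4 (0.029) and Asb2 (0.0065). Unloading against Control, 1 gene was lower without the filter, with the robust fit and with only the 2 groups compared. Without the filter Fbxo31 was 0.022 there. Leaving out Control 2 and Reloading 1 together left 1 gene higher in Unloading than in Control, and gave -0.041 for Fbxo30 there and -0.016 for Nedd4 in Reloading against Control.

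Leaving out 1 library at a time gave 121 (without Unloading 1) to 1518 genes past the threshold for Unloading against Control, with 949 without Control 3; where 1 Unloading library was left, it was assumed to vary like the other groups; of the 10 ligases 0 to 2 were higher and 0 to 1 lower. Reloading against Unloading, 0 (without Unloading 2) to 1 were higher. Uncalled values that changed sign when a library was left out were, in Unloading against Control, Trim63 (-0.012 to 0.13), Fbxo30 (-0.043 to 0.12) and Fbxo31 (-0.077 to 0.050), and, in Reloading against Unloading, Trim55 (-0.13 to 0.0010).

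Replicate numbers in the titles and in the descriptions disagree for Reloading. Deviations of libraries with the same title number correlated at -0.201 to 0.0752 (0 of 7 pairs over 0.1) and with the same description number at 0.0172 to 0.361 (3 of 6 pairs over 0.1). Those 3 were all the Control and Reloading pairs with the same description number. The highest of them was Control 2 with Reloading 1, both with raised keratinocyte markers. The description numbers were therefore taken to pair these groups, while Unloading shares only a number with the others. Of pairs with unlike description numbers, 2 of 20 were also over 0.1, so this pairing is uncertain. Both were Control and Reloading pairs, Control 1 with Reloading 2 (0.106) and with Reloading 3 (0.117). The 20 also include pairs with Unloading, which this pairing leaves out. With the replicate block by title number 1042, 5108 and 5705 genes were called in the 3 comparisons, 1 ligase was higher on unloading and Fbxo31 was 0.070 there. With the replicate block by description number 1479, 4902 and 6632 genes were called, 2 ligases were lower on unloading and 2 higher in Reloading than in Unloading, and Fbxo31 was 0.046 on unloading. In Reloading against Control this block ended the call of Trim54 (0.16) and changed no other call of the 10 genes.

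Per summed fibre marker, an alternative added after seeing the data and given without a test, the called values that changed sign were Nedd4 in Reloading against Unloading (0.22) and Fbxo32 (0.065), Fbxo30 (0.18) and Trim55 (0.17) in Reloading against Control. Values not called that changed sign were Trim55 (0.38), Asb2 (0.20) and Fbxo30 (0.10) in Reloading against Unloading, Klhl38 (0.23) in Reloading against Control and Fbxo31 (0.037) in Unloading against Control. With 2 Unloading libraries, comparisons with that group rest on the least replication.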
